A study of Mus musculus with 6 samples.

Results

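RNA polymerase III (Pol III) is the enzyme that transcribes tRNA genes, 5S rRNA genes and other short noncoding RNA genes. At a tRNA promoter TFIIIC binds inside the gene and places TFIIIB, made of BRF1, BDP1 and the TATA-binding protein, upstream of the start, and TFIIIB then recruits the polymerase. MAF1 is a repressor that binds Pol III when nutrients or growth signals are short, and in growing cells it is kept phosphorylated, largely through mTORC1. The 10 genes described here are 7 that code for Pol III subunits (Polr3a, Polr3b, Polr3d, Polr3e, Polr3g, Polr3gl and Polr3k), the TFIIIB genes Brf1 and Bdp1, and Maf1. They were chosen by name from the 43412 annotated genes, with earlier results of these data known. All 10 passed the filter on low values, as did 13749 genes in all.

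The cells were GC-2spd, an immortalized line derived from mouse spermatocytes and labelled as C57BL/6J testis, grown in DMEM with fetal bovine serum. One group of 3 poly(A) RNA libraries came from hypoxia-treated cells, kept at 1% O2 with CO2 and N2 for 48 h, and the other group of 3 came from normoxic cells at 21% O2. The labels do not give the time, which is that of the cell experiments in the study's methods and legends, and they leave unsaid if the 3 libraries were grown as separate cultures. If they were not, the p-values measure only the spread between these libraries. The unit is TPM, the abundance of a gene's transcripts relative to all transcripts, corrected for length, and a fold change is the difference of log2(TPM + 1), hypoxia minus normoxia. A call is an adjusted p under 0.05 by limma with the Benjamini-Hochberg (BH) adjustment over all genes tested.

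Aligned bases were 5.80 to 6.72 gigabases in hypoxic libraries and 5.75 to 6.61 gigabases in normoxic libraries. All 10 genes of a list of oxygen-responsive genes were called higher in hypoxia, against 17.9% of all genes tested. Among them Bnip3, a mitophagy receptor, had 1486 ± 32.6 TPM in hypoxia and 444 ± 4.75 TPM in normoxia (SD, n = 3 each). The germ cell origin was not visible in the RNA: all 6 germ cell, 8 meiotic spermatocyte and 8 spermatid markers stayed below 1 TPM in every library. The summed level of 7 fibroblast or myoid markers was 2721 to 2976 TPM in hypoxic libraries and 2283 to 2352 TPM in normoxic libraries. It was carried by Col1a1, called higher at 1720 TPM in hypoxia and 1161 TPM in normoxia on average, and by Col1a2, not called at 1138 TPM in hypoxia and 1123 TPM in normoxia. In the same list Pdgfra was called lower, at 1.54 TPM in hypoxia and 5.02 TPM in normoxia, Acta2 and Col3a1 were not called, Myh11 was below the filter and Thy1 was listed at 0 in every library. Of the Sertoli, Leydig and macrophage markers, Sox9, Insl3 and Cd68 were called higher, at 0.95, 1.25 and 0.49 on the log2 scale. Gata4, Rhox5, Star and Csf1r of these lists were not called, at −0.23, −0.13, −0.18 and 0.23. The others were below the filter. Among them Cyp11a1 had 0.05 TPM in hypoxia and 0.85 TPM in normoxia, and Wt1 had 0.75 and 0.06 TPM. Ptprc, Adgre1 and Itgam were listed at 0 in every library. The part of these markers in the results was not tested. In bulk RNA a smaller number of cells with a transcript and less of it per cell cannot be told apart.

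Of the 10 genes, 6 were lower in hypoxia, none was higher and 4 were not called. Polr3e fell most, followed by Brf1 and Polr3d, and Polr3b, Polr3k and Bdp1 fell by less. Polr3a, Polr3g, Polr3gl and Maf1 were not called. Among all 13749 genes tested, 36.1% were called lower and 17.9% higher (54.0% in either direction), so that a fall was the more common change in these libraries. The median log2 fold change of the 10 genes was −0.26, against −0.13 over all genes tested. When the libraries were rescaled so that the median gene did not change (median-ratio scaling, which moved the median of all genes from that value to 0.0014), 3 of the 10 genes were lower, namely Polr3d, Polr3e and Brf1, and Polr3a was higher. With that scaling 26.3% of all genes were lower and 26.2% were higher. Quantile normalization, which gives every library the same distribution of values, also left these 3 genes lower and Polr3a higher, against 26.5% of all genes lower and 26.0% higher.

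**Figure D1:**
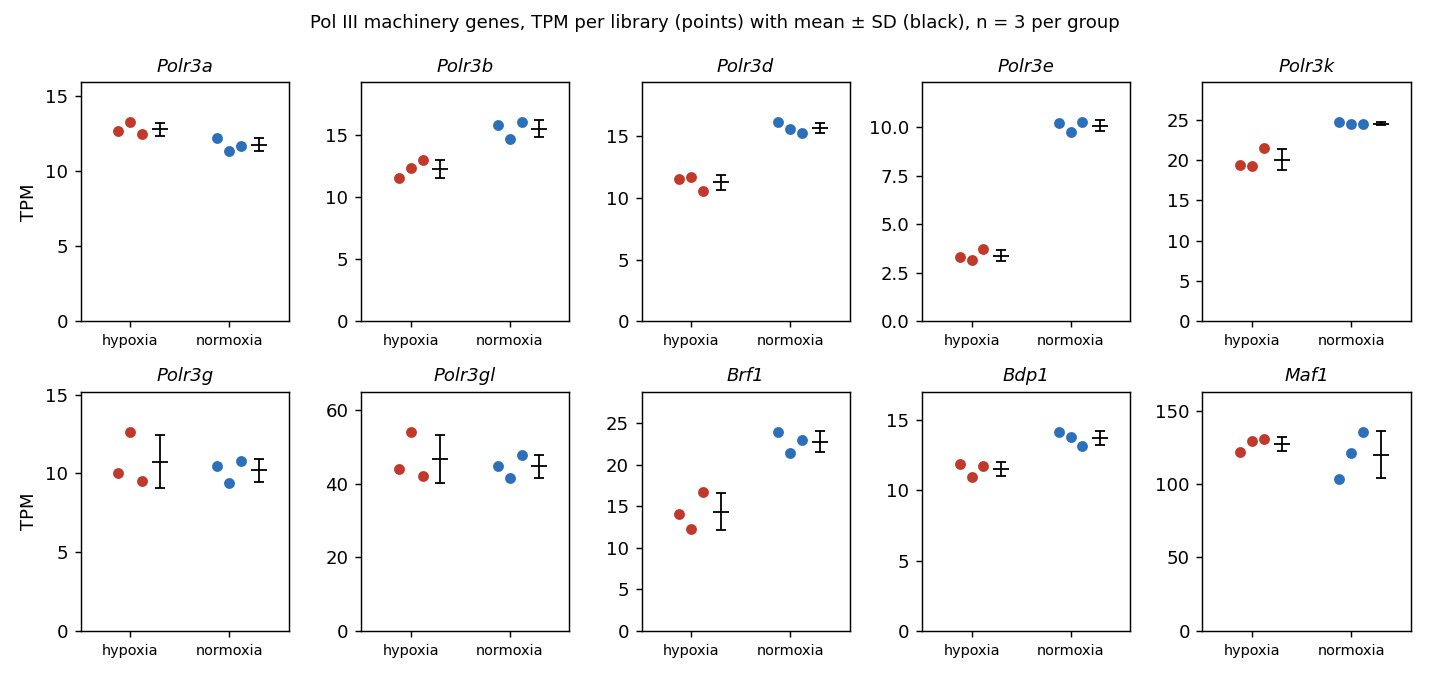
TPM of the 10 Pol III machinery genes in each library, with hypoxia (red) left of normoxia (blue); points are libraries, black marks are the mean ± SD of 3 libraries, and each vertical axis starts at 0. The 3 hypoxic libraries of Polr3e lie between 3.14 and 3.71 TPM and the 3 normoxic ones between 9.74 and 10.25 TPM, while the points of Polr3g, Polr3gl and Maf1 overlap.

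The start regions of 6 of the 10 genes (Polr3b, Polr3e, Polr3g, Polr3gl, Polr3k and Bdp1) were found in the RefSeq table of GRCm38.p6, the assembly of mm10, as windows of 250 bases before and 50 bases after the start. They were searched on both strands for CACGTG, the E-box bound by MYC and related factors, for ACGTG, the core shared by many hypoxia response elements and contained in that E-box, and for CCGGAAG, the core bound by ETS factors. CACGTG was found in Polr3e and Polr3gl, 2 of the 6 windows, and in 7.15% of all 32851 windows. It is shown because Polr3e is the gene that fell most and Polr3gl is one that was not called. ACGTG outside an E-box was found in Polr3k only, so that 3 of the 6 windows held ACGTG, against 19.6% of all windows. CCGGAAG was found in Polr3b, Polr3g and Bdp1, against 8.86% of all windows. A match of letters is not a measured binding site. The stretches below carry the E-box (Polr3e and Polr3gl) or the ETS core on the opposite strand (Polr3b, Bdp1 and Polr3g) in capitals. They run 5′ to 3′ on the strand of the gene.
Polr3e, chr7:120917763-120917792, plus strand, bases −15 to 15: agggccggccccgctcccccCACGTGtccg
Polr3gl, chr3:96594312-96594411, minus strand, bases −230 to −131: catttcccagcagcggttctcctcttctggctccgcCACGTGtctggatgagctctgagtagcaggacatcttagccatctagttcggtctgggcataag
Polr3b, chr10:84622198-84622297, plus strand, bases −100 to −1: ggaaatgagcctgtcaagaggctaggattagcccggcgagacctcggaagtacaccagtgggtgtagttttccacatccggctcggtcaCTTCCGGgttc
Bdp1, chr13:100104071-100104170, minus strand, bases −100 to −1: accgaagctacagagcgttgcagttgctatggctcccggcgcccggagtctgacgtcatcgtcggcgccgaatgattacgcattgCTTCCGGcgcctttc
Polr3g, chr13:81711014-81711113, minus strand, bases −100 to −1: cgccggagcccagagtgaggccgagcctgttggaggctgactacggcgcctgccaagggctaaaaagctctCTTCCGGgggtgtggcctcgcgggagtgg
In Polr3e the E-box begins at base 6 after the RefSeq start, inside the first exon, and the gene's start in the deposited files lies 34 bases further upstream. In Polr3gl it begins 194 bases before the start, in the upstream flank.

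Polr3e and Polr3d code for RPC5 and RPC4, which pair in a TFIIF-like module of Pol III that acts in initiation and termination. Polr3e (ENSMUSG00000030880, chr7:120917744-120947432 in mm10, plus strand) had 3.32, 3.14 and 3.71 TPM in hypoxia, against 10.22, 9.74 and 10.25 TPM in normoxia. The groups lay far apart, and every hypoxic library held less than every normoxic one. The log2 fold change was −1.34 (SE 0.09, 95% interval −1.55 to −1.12, limma BH adjusted p = 4.87e-05), and the mean TPM fell by 66.3%. Only 304 of the 13749 genes, or 2.21%, had a lower log2 fold change, and 5.33% of all genes were called lower by 2-fold or more. Polr3e was called under all 16 other settings, with log2 fold changes between −1.55 and −1.13.

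Polr3d (ENSMUSG00000000776, chr14:70438748-70443471, minus strand) had 11.54, 11.73 and 10.55 TPM in hypoxia, against 16.15, 15.62 and 15.30 TPM in normoxia. The groups did not overlap, but the distance was much smaller than for Polr3e. The log2 fold change was −0.44 (SE 0.07, limma BH adjusted p = 0.00184), and Polr3d too was called under all 16 other settings. Because the partners fell unequally, the ratio of Polr3e to Polr3d TPM within a library was 0.302 ± 0.0438 in hypoxia and 0.642 ± 0.0247 in normoxia (SD, n = 3 each). This ratio was formed after the values were seen and is given without a test.

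Polr3a and Polr3b code for the largest subunits, RPC1 and RPC2, which form the active centre. Polr3b (ENSMUSG00000034453, chr10:84622437-84727177, plus strand) had 11.56, 12.35 and 12.99 TPM in hypoxia, against 15.83, 14.72 and 16.05 TPM in normoxia. Polr3b shares 247 bases of exon with Gm17249 on the other strand, at 1.30 TPM in hypoxia and 1.41 TPM in normoxia. All hypoxic libraries of Polr3b were lower. Its log2 fold change of −0.31 (SE 0.07) was called (limma BH adjusted p = 0.0103) but not after median-ratio scaling (−0.18, limma BH adjusted p = 0.0519) or quantile normalization (−0.11, limma BH adjusted p = 0.179).

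Polr3a (ENSMUSG00000025280, chr14:24448694-24487046, minus strand) had 12.68, 13.28 and 12.46 TPM in hypoxia, against 12.26, 11.36 and 11.71 TPM in normoxia. Here every hypoxic library was higher, by a small margin, and the difference was not called (log2 fold change 0.11, 95% interval −0.05 to 0.27, limma BH adjusted p = 0.204). Relative to the median gene, Polr3a was higher: it was called at 0.25 after median-ratio scaling (limma BH adjusted p = 0.0177) and at 0.32 after quantile normalization (limma BH adjusted p = 0.00622). The genes of the catalytic pair thus lay on different sides of 0, and Polr3a was the 1 of the 10 genes whose hypoxic libraries were all higher, a pattern seen in 21.4% of all genes. In 41.0% of all genes every hypoxic library was lower, as in 6 of the 10.

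Polr3k codes for RPC10, the small subunit that cleaves RNA in stalled and terminating complexes. Polr3k (ENSMUSG00000038628, chr2:181864337-181870830, plus strand) had 19.46, 19.24 and 21.52 TPM in hypoxia, against 24.70, 24.43 and 24.45 TPM in normoxia. The normoxic libraries were nearly equal and all hypoxic ones lay below them. The log2 fold change was −0.28 (SE 0.06, limma BH adjusted p = 0.00937). It was not called after median-ratio scaling (−0.14, limma BH adjusted p = 0.0753) or quantile normalization (−0.10, limma BH adjusted p = 0.170).

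Polr3g and Polr3gl are paralogs for the RPC7 subunit, which occupy the same place in the enzyme, so that a cell can hold either form of Pol III. In mammals Polr3g is known as the form of embryonic and tumour cells and Polr3gl as the form of most differentiated tissues. Polr3gl (ENSMUSG00000028104, chr3:96577872-96594181, minus strand) had 44.00, 54.24 and 42.09 TPM in hypoxia, against 44.88, 41.66 and 47.98 TPM in normoxia. Polr3g (ENSMUSG00000035834, chr13:81673843-81711013, minus strand) had 10.04, 12.66 and 9.50 TPM in hypoxia, against 10.44, 9.36 and 10.78 TPM in normoxia. For both genes the groups overlapped and the second hypoxic library was the highest of all. Neither was called (log2 fold change 0.05, 95% interval −0.20 to 0.30, limma BH adjusted p = 0.692 for Polr3gl). For Polr3g the log2 fold change was 0.06 with a 95% interval of −0.22 to 0.34 (limma BH adjusted p = 0.694), and without the second hypoxic library both values fell just below 0.

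The ratio of Polr3gl to Polr3g TPM hardly varied. It was 4.38, 4.29 and 4.43 in hypoxia, against 4.30, 4.45 and 4.45 in normoxia. Its coefficient of variation over the 6 libraries was 1.71%, against 11.5% for Polr3g and 10.3% for Polr3gl. The mean log2((Polr3g + 1)/(Polr3gl + 1)) was −2.03 ± 0.01 in hypoxia and −2.03 ± 0.03 in normoxia (SD, n = 3 each), a difference of 0.0065 (exact permutation test, 2-sided, p = 0.70, where 3 against 3 libraries cannot give less than 0.10). The longest stretch of bases shared by the annotated transcripts of the paralogs was 14 bases, and none of 50 bases was shared. Polr3gl shares 57 bases of exon with Gm16253 on the other strand, which had 6.38 TPM in hypoxia and 2.45 TPM in normoxia.

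**Figure D2:**
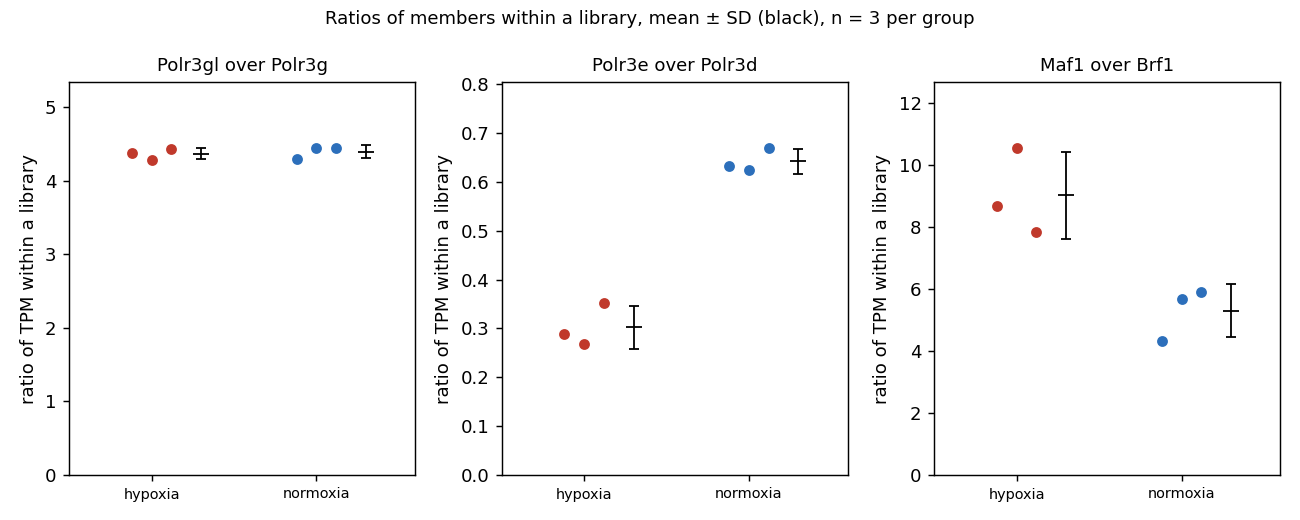
Ratios of the TPM of 2 genes within a library, for Polr3gl over Polr3g, Polr3e over Polr3d and Maf1 over Brf1, with hypoxia (red) left of normoxia (blue); points are libraries and black marks the mean ± SD of 3 libraries. The paralog ratio lies between 4.29 and 4.45 in all 6 libraries, whereas Polr3e over Polr3d is 0.302 in hypoxia and 0.642 in normoxia on average.

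BRF1 and BDP1 are the TFIIIB subunits used at tRNA and 5S rRNA genes. Brf1 (ENSMUSG00000011158, chr12:112959862-113000621, minus strand) had 14.03, 12.24 and 16.71 TPM in hypoxia, against 23.97, 21.40 and 22.96 TPM in normoxia. The hypoxic libraries varied more among themselves but all lay below the normoxic ones. The log2 fold change was −0.64 (SE 0.11, 95% interval −0.91 to −0.37, limma BH adjusted p = 0.00304), and the mean TPM fell by 37.1%. Brf1 was called under 15 of the 16 other settings. The exception used the locus that StringTie assembled from the reads at that place instead of the annotated gene, where Brf1 had 13.83, 6.86 and 13.97 TPM in hypoxia, against 13.01, 17.07 and 20.42 TPM in normoxia (limma BH adjusted p = 0.222). The assembled Brf1 locus matched the annotated value in none of the 6 libraries, and Brf1 shares 532 bases of exon with the antisense gene 9230104M06Rik, at 1.22 TPM in hypoxia and 2.11 TPM in normoxia.

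Bdp1 (ENSMUSG00000049658, chr13:100017994-100104070, minus strand) had 11.86, 10.95 and 11.71 TPM in hypoxia, against 14.18, 13.82 and 13.14 TPM in normoxia. The hypoxic libraries were all lower, and the log2 fold change of −0.24 (SE 0.07) was called (limma BH adjusted p = 0.0260). That call was lost under 7 of the 16 other settings. As an assembled locus Bdp1 had 13.97, 13.00 and 15.92 TPM in hypoxia, against 14.18, 13.82 and 13.98 TPM in normoxia, so that the groups overlapped and the log2 fold change was 0.024 (limma BH adjusted p = 0.847). In all 3 hypoxic libraries the assembled locus had more TPM than the annotated gene, and the cause was not tested. Without the second hypoxic library, the first normoxic or the second normoxic library, the limma BH adjusted p of Bdp1 was 0.0798, 0.0800 and 0.0679, each above the threshold.

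Maf1 (ENSMUSG00000022553, chr15:76351294-76354380, plus strand) was the most abundant of the 10 genes, with 121.9, 129.1 and 130.7 TPM in hypoxia, against 103.5, 121.1 and 135.7 TPM in normoxia. The normoxic libraries spanned the hypoxic ones, and Maf1 was not called (log2 fold change 0.09, 95% interval −0.14 to 0.32, limma BH adjusted p = 0.457). The ratio of Maf1 to Brf1 TPM was 9.02 ± 1.40 in hypoxia and 5.30 ± 0.857 in normoxia (SD, n = 3 each), another ratio formed after the values were seen. As an assembled locus Maf1 had 151, 166 and 266 TPM in hypoxia, against 131, 121 and 136 TPM in normoxia, and it was not called there (log2 fold change 0.54, limma BH adjusted p = 0.114). Its control is largely by phosphorylation, which RNA libraries do not measure. For Polr3e and Polr3b the assembled locus and the annotated gene had the same TPM, within 0.01, in 6 of 6 libraries. For Maf1 and Brf1, the genes of the ratio above, this held in 0 of 6.

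**Figure D3:**
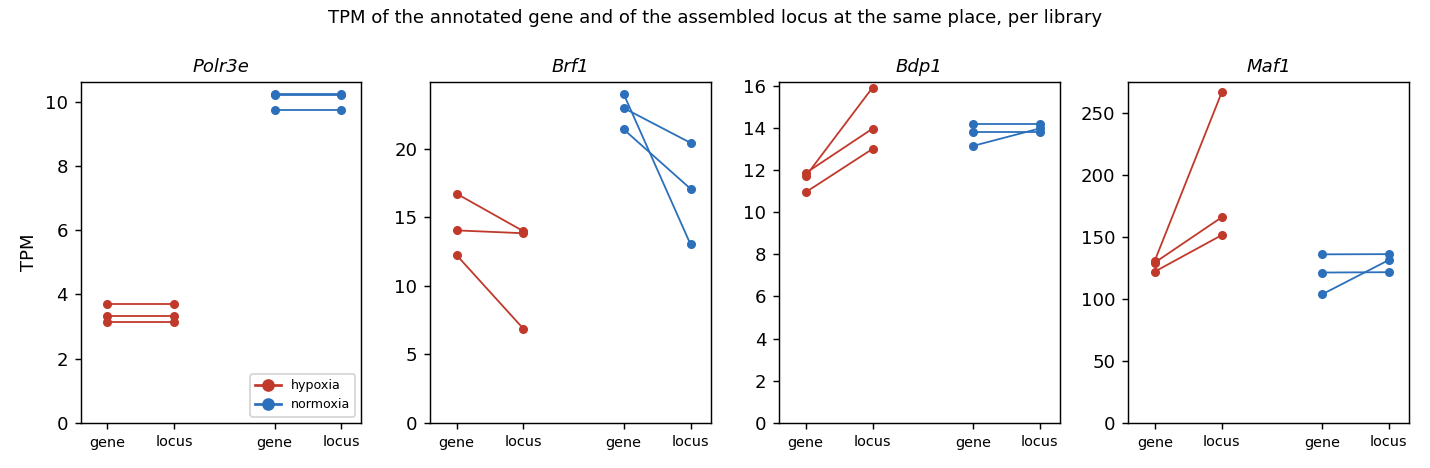
TPM of Polr3e, Brf1, Bdp1 and Maf1 in each library, measured on the annotated gene and on the locus assembled from the reads at the same place, with lines joining the values of a library, hypoxia (red) left of normoxia (blue), and axes starting at 0. The lines of Polr3e are flat, while the hypoxic libraries of Bdp1 are higher on the assembled locus (13.00 to 15.92 TPM) than on the annotated gene (10.95 to 11.86 TPM).

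In hypoxia the order of the 10 genes by mean TPM was Maf1, Polr3gl, Polr3k, Brf1, Polr3a, Polr3b, Bdp1, Polr3d, Polr3g and Polr3e. In normoxia it was Maf1, Polr3gl, Polr3k, Brf1, Polr3d, Polr3b, Bdp1, Polr3a, Polr3g and Polr3e. The leading genes were the same, and the library values of neighbours did not overlap from Maf1 down to Polr3k and Brf1. From Brf1 to Polr3g the hypoxic neighbours overlapped, so that their order there does not exceed the spread. Polr3e stood alone at the bottom in hypoxia, at 3.39 ± 0.290 TPM (SD, n = 3), whereas in normoxia it overlapped with Polr3g, at 10.1 ± 0.284 TPM for Polr3e (SD, n = 3).

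**Figure D4:**
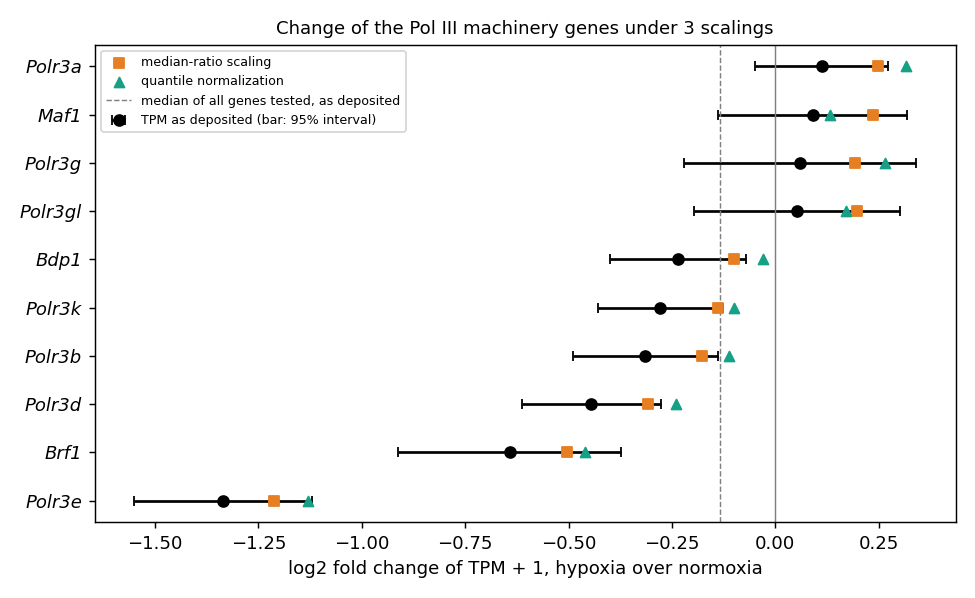
Change of the 10 genes as the log2 ratio of TPM + 1 in hypoxia to normoxia; black points with 95% intervals are TPM as deposited, orange squares are after median-ratio scaling, green triangles are after quantile normalization, and the dashed line is the median of all genes tested (−0.13). Polr3e, Brf1 and Polr3d stay left of 0 under all 3 scalings, and both rescalings move every gene to the right.

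Of 10 further Pol III subunits, 6 were lower, none was higher and 4 were not called, with a median log2 fold change of −0.23, against 36.1% lower and 17.9% higher over all genes. After median-ratio scaling 4 were lower and 1 was higher, with a median of −0.089, against 26.3% lower and 26.2% higher over all genes. Crcp, for the stalk subunit RPC9, had 32.4 ± 0.766 TPM in hypoxia and 32.6 ± 2.44 TPM in normoxia (SD, n = 3 each) and was not called. Polr3c and Polr3f, whose products RPC3 and RPC6 join RPC7 in the module that contacts TFIIIB, were lower by small amounts, at −0.23 each (limma BH adjusted p = 0.0437 for Polr3c).

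The subunits shared with other polymerases fell in part. Polr2l, a small subunit of all the nuclear polymerases, had 21.7 ± 0.762 TPM in hypoxia and 43.1 ± 3.40 TPM in normoxia (SD, n = 3 each), with a log2 fold change of −0.96 (limma BH adjusted p = 7.44e-05). Polr2f, Polr2e and Polr2h, shared in the same way, were lower at −0.67, −0.51 and −0.38. Polr2k was at −0.21 and not called (limma BH adjusted p = 0.0563). Polr1c and Polr1d, which pair in Pol I and Pol III, were at 0.22 and −0.16 and not called. Of the 10 further subunits Polr2l thus had the lowest log2 fold change.

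Of the 6 TFIIIC and TFIIIA genes measured (Gtf3c2 was not analysed here), 4 were lower and 2 were not called, against 36.1% of all genes lower. Gtf3c6, for a small TFIIIC subunit, had 10.09, 12.16 and 7.81 TPM in hypoxia, against 25.30, 24.08 and 26.89 TPM in normoxia. It did not overlap between the groups and its log2 fold change was −1.28 (SE 0.14, limma BH adjusted p = 0.000414), while Gtf3c4 and Gtf3c5 were at −0.29 and −0.28. Gtf3a, for the 5S rRNA factor TFIIIA, was lower at −0.27 (limma BH adjusted p = 0.0476) and shares 851 bases of exon with Mtif3 on the other strand, so that its value is uncertain where the use of strand is not given. Gtf3c1 and Gtf3c3, for the subunits that bind the B box and TFIIIB, were at 0.11 and 0.06 and not called. After median-ratio scaling 1 gene of this list was lower and 1 was higher, against 26.3% and 26.2% of all genes.

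The remaining 7 genes of TFIIIB and SNAPc, the complex used at U6-type promoters, had 3 members lower, 2 higher and 2 without a call, shares near those of all genes (36.1% lower and 17.9% higher). After median-ratio scaling 2 were lower and 3 were higher, against 26.3% and 26.2% of all genes. Brf2, the counterpart of Brf1 at U6-type promoters, had 10.1 ± 0.971 TPM in hypoxia and 14.0 ± 0.0768 TPM in normoxia (SD, n = 3 each), at −0.43 (limma BH adjusted p = 0.00480). Snapc5 was lower at −0.60, and Tbp at −0.45, with 14.3 TPM in hypoxia and 20.2 TPM in normoxia on average. Tbp shares 1157 bases of exon with Pdcd2 on the other strand, at 20.4 TPM in hypoxia and 24.9 TPM in normoxia. The value of Tbp is therefore uncertain, as for Gtf3a. Snapc4, for the largest SNAPc subunit, was higher, with 24.9 ± 1.66 TPM in hypoxia and 17.4 ± 2.07 TPM in normoxia (SD, n = 3 each), at 0.49 (limma BH adjusted p = 0.00537). Snapc2 was higher at 0.20, while Snapc1 was at 0.14 and Snapc3 at −0.23, both not called. Snapc3 shares 226 bases of exon with Psip1 on the other strand, at 194 TPM in hypoxia and 227 TPM in normoxia. Its value is therefore uncertain in the same way as that of Gtf3a.

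Among 12 regulators of Pol III, 6 fell, 3 rose and 3 had no call, against 36.1% of all genes lower and 17.9% higher. After median-ratio scaling the balance turned, with 3 lower and 4 higher, against 26.3% and 26.2% of all genes. Myc, whose product binds TFIIIB and activates Pol III, had 42.3 ± 1.66 TPM in hypoxia and 84.9 ± 2.03 TPM in normoxia (SD, n = 3 each), with a log2 fold change of −0.99 (limma BH adjusted p = 1.61e-05). Rb1, for a repressor that binds TFIIIB, was higher, with 20.5 ± 3.14 TPM in hypoxia and 13.0 ± 0.353 TPM in normoxia (SD, n = 3 each), at 0.60 (limma BH adjusted p = 0.00410). Rbl2, for a relative of RB, was higher at 0.27. It shares 347 bases of exon with Aktip on the other strand, at 17.6 TPM in hypoxia and 19.3 TPM in normoxia. The value of Rbl2 is therefore uncertain, as for Gtf3a. Rbl1, for another relative of RB, was lower at −0.23 (limma BH adjusted p = 0.00694). Csnk2a2, for a subunit of casein kinase CK2, which activates Pol III in mammals, was higher at 0.26. Of the other CK2 genes, Csnk2b was lower at −0.16 (limma BH adjusted p = 0.0218) and Csnk2a1, at 0.07, was not called. Trp53, for another repressor that binds TFIIIB, was lower at −0.72. It had 1973 TPM in hypoxia and 3244 TPM in normoxia on average, the highest level of the list, and the source of that level was not tested. Ppp4c, for a phosphatase known in yeast to act on Maf1, was lower at −0.46. Known activators and known repressors therefore appear among both the lower and the higher genes of the list.

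Of 12 genes of tRNA maturation and export, 10 fell, 1 rose and 1 had no call, with a median log2 fold change of −0.47, against 36.1% of all genes lower and 17.9% higher. Tsen54, for a subunit of the endonuclease that splices tRNA, was at −0.91, and Elac2, which removes the 3′ trailer of tRNA precursors, was at −0.84. Xpot, the exporter of tRNA, had 38.9 ± 0.195 TPM in hypoxia and 60.5 ± 2.71 TPM in normoxia (SD, n = 3 each), at −0.62 (limma BH adjusted p = 0.000107). Tsen15 of the same endonuclease was the 1 gene that was higher, at 0.38. After median-ratio scaling 8 were lower and 2 were higher, against 26.3% and 26.2% of all genes. Of 4 genes whose products bind Pol III transcripts, 3 were lower, namely Larp7 at −0.58, Ssb at −0.27 and Mepce at −0.27, and Trove2 at 0.12 was not called, against 36.1% of all genes lower. After median-ratio scaling 2 of these 4 were lower and 1 was higher, against 26.3% and 26.2% of all genes.

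The other polymerases were compared on the subunits particular to each. Of 6 Pol I genes 5 were lower, with a median log2 fold change of −0.89, and of 7 Pol II genes 2 were lower, with a median of −0.10, against 36.1% of all genes lower. After median-ratio scaling 5 Pol I genes were lower and none was higher, with a median of −0.75, whereas 1 Pol II gene was lower and 3 were higher, with a median of 0.044, against 26.3% and 26.2% of all genes. Without the second normoxic library the Pol II median was 0.076. The Pol I gene Polr1e, for a subunit of the TFIIF-like module of Pol I, had 3.75, 3.40 and 3.97 TPM in hypoxia, against 11.64, 11.35 and 10.31 TPM in normoxia. This gene and Polr3e had similar values in both groups, at −1.36 for Polr1e (limma BH adjusted p = 5.08e-05) and −1.34 for Polr3e. The largest subunits differed, with Polr1a at −0.93, Polr2a at −0.12 (not called) and Polr3a at 0.11 (not called). The differences between these lists were not tested.

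**Figure D5:**
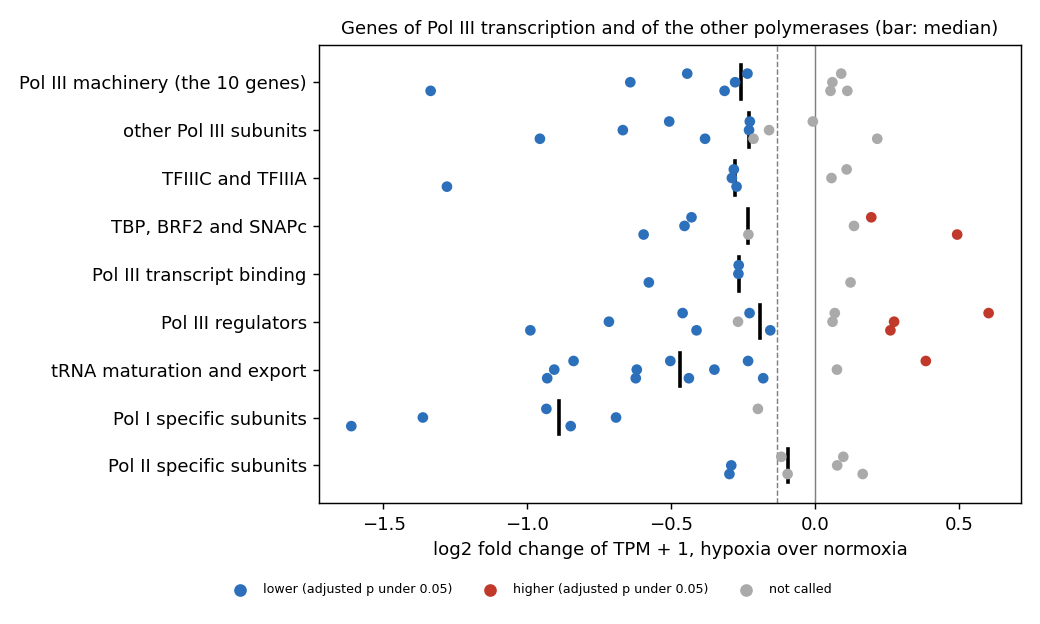
Change of each gene, as the log2 ratio of TPM + 1 in hypoxia to normoxia, in the Pol III lists and in the lists of subunits particular to Pol I and Pol II; points are genes, blue called lower, red called higher and grey not called, black bars are list medians, and the dashed line is the median of all genes tested. The median is −0.26 for the 10 Pol III machinery genes, −0.89 for Pol I and −0.10 for Pol II, the last being 0.044 after median-ratio scaling.

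The 5 genes whose pattern over the 6 libraries was most like the summed log2 level of the 10 genes were Rhou, U2af1, Fam171b, Hacd2 and Itpkb. Their Pearson r rounded to 0.999, without a test. The sum was not scaled per gene, so that larger changes weigh more in it, and Polr3e and Brf1 changed most of the 10. Of the 10912 genes compared, 2208 reached an r of at least 0.95, so a likeness of this kind was common in these libraries. The products of Pol III could not be read from them. Of 188 genes for 5S rRNA and other Pol III RNAs, 147 were listed at 0 in every library and the highest value was 7.88 TPM, in libraries made from poly(A) RNA.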

How the data were processed

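GC-2spd poly(A) RNA was sequenced in pairs on a NovaSeq, filtered with Cutadapt, aligned with HISAT2 to mm10 and quantified with StringTie by the authors. Versions, annotation release and strand setting are not given in the sources used here. The deposited values per gene are coverage (mean read depth, used only with FPKM to derive aligned bases), FPKM (scaled for length and aligned fragments) and TPM. The deposited TPM column lists annotated genes beside assembled loci and so has a sum well above that of a usual TPM column. It was treated as a signal, where a plain TPM table had been planned for. Only annotated genes were analysed, without rescaling. Their TPM summed to 948284 to 977044 in hypoxia and 972522 to 981418 in normoxia.

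Of 43432 gene IDs 42462 were matched to GENCODE M21 symbols, and values were summed per symbol. The 13749 genes that averaged 1 TPM or more entered the test on log2(TPM + 1) in limma 3.58.1 (trend, 2-sided) in R 4.3.3, with BH adjustment at 0.05. The steps were also run on simulated data in which few genes changed, equally often up and down. That run does not cover a case like these libraries, where 54.0% of genes were called. The study tested counts with edgeR, which are not among the values used here, so no counting interval was calculated, and 3 libraries per group limit the precision. The other settings were a pseudocount of 0.1, no filter or a filter at 5 TPM, FPKM, median-ratio scaling, quantile normalization, no mitochondrial genes, no variance trend, a replicate block, each library left out and, chosen after seeing the data, the assembled locus. The 10 genes and the lists were chosen with earlier results of these data known, and 2 listed genes are not reported here. Named are all 10 genes and every gene of the subunit, TFIIIC and TFIIIB lists. Of the other lists up to 4 genes per direction with the smallest adjusted p are named, plus Csnk2b and Csnk2a1 of CK2. The 5 genes above 5 TPM most correlated with the summed log2 level of the 10 are named too.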

Additional observations from a re-analysis of the deposited data

How the results depend on the processing

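Polr3d and Polr3e kept their call under all 16 other settings, and Brf1 under 15. With median-ratio scaling 3 of the 10 genes were lower and 1 was higher, against 26.3% and 26.2% of all genes, with a median log2 fold change of −0.12. With quantile normalization 3 were lower and 1 was higher, against 26.5% and 26.0% of all genes, with a median of −0.064. The log2 ratio of Polr3g to Polr3gl differed by 0.10 with quantile normalization. On assembled loci 4 were lower and none was higher, against 3746 lower and 1878 higher of all 13749 genes. The median of the 10 genes there was −0.12, against −0.13 over all genes. The log2 ratio of Polr3g to Polr3gl differed by 0.029, and Bdp1 was at 0.024, on the other side of 0. Those loci were matched by shared span and can join neighbouring genes.

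Leaving out 1 library at a time gave 5 to 6 genes lower and 0 higher, a median of −0.29 to −0.23 and a ratio difference of −0.0045 to 0.02. Of the 13730 to 13764 genes tested in these fits, 4287 to 4798 were lower and 2090 to 2284 were higher. Over the same 6 fits the log2 fold change of Polr3g ran from −0.054 to 0.14, that of Polr3gl from −0.056 to 0.12 and that of Maf1 from −0.011 to 0.18, with none called. The 5 came from the loss of Bdp1 without the second hypoxic, first normoxic or second normoxic library.

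Libraries with the same replicate number deviated together by correlations of 0.03, 0.03 and 0.01, against −0.05 to 0.03 for different numbers. The third hypoxic library correlated best with another number. Deviations from a group mean of 3 libraries sum to 0, so these correlations cannot decide if the numbers pair the samples. With the number as a replicate block 5 genes were lower, 0 were higher and the median was −0.26, against 4674 lower and 2281 higher of all 13749 genes. Bdp1 had a limma BH adjusted p of 0.0586 there. Counts are not among the values used here. Coverage is given per gene, but the number of reads behind a single TPM was not derived from it.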
